A study of Arabidopsis thaliana with 28 samples.

Results

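The comparison described here asks whether Arabidopsis shoots and roots changed their transcripts alike between 0.25 h and 3 h of a UV-B time course. For each probe set on the ATH1 expression array, the change in shoots (3 h minus 0.25 h, on a log2 scale) was set against the same change in roots. It rests on 8 of the 28 arrays of the series, 2 for each tissue and time, and on all 22746 probe sets that are not array controls. Of these, 14806 had enough signal to be tested. Each was then sorted by 3 calls (the shoot change, the root change and the difference between them) into changes that were shared, shoot-only, root-only or opposite, and each was marked if it lay near background in either tissue, meaning that all 4 of its arrays there lay below their own array's median signal. Changes are on the scale log2(signal + 9.58), where the added constant keeps very low signals from giving large ratios and so understates changes that start from them.

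All plants were of the Col-0 accession (stock N1092), 16 days old, grown in a growth room on Murashige and Skoog medium in days of 16 h light. The groups used were shoots labelled 0.25 h, shoots labelled 3 h, roots labelled 0.25 h and roots labelled 3 h, all from plants given a 15 min exposure to UV-B at 1.18 W per square metre from Philips TL40W/12 tubes that began 3 h into the light period. Every group had therefore been exposed, and no array of unexposed plants was used here, so the values give a change in time after exposure and not an effect of UV-B against no UV-B. The 3 h plants were also sampled later in the day than the 0.25 h plants, so time after exposure and hour of day cannot be told apart. Whether times were counted from the beginning or the end of exposure, and whether roots were themselves lit, is not in the labels. Nor do they say if both replicates of a group were grown apart, so the p-values cover the spread between arrays, which may be technical. Signals come from whole shoots or roots, in which fewer cells of a type and less RNA per cell cannot be told apart.

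UV-B is absorbed by the photoreceptor UVR8, which acts through light-signalling bZIP factors to switch on the synthesis of flavonoids and sinapate esters, compounds that screen the tissue. Stronger UV-B also damages DNA, proteins and membranes and raises general stress responses, among them calcium signalling, detoxifying glycosyltransferases and glutathione transferases, chaperones and defence genes. Shoots carry the photosynthetic apparatus and most of the screening pigments, and roots do not normally see UV-B directly.

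The tissue labels held against their marker genes. The summed signal of 7 shoot markers (nuclear genes of photosynthesis) was 33094 to 33510 in shoots at 0.25 h and 23120 to 25292 at 3 h, against 420.1 to 474 and 498 to 533 in roots. The 3 root markers (the root-hair expansins EXPA7 and EXPA18 and the beta-glucosidase PYK10) summed to 3284 to 3705 and 3645 to 3849 in roots, against 619.6 to 952 and 437 to 502 in shoots. Replicate arrays correlated with Pearson's r of 0.978 for shoots at 0.25 h, 0.991 for shoots at 3 h, 0.989 for roots at 0.25 h and 0.994 for roots at 3 h across probe sets, which are not independent replicates. The 2 shoot arrays at 0.25 h thus differed most from each other, and the values of both are given below for many genes but not all. Where only log2 changes are printed these 2 arrays could also lie apart. Examples are UGT87A2 (152 and 79.5), PUB24 (74.6 and 43.9) and SUFE2 (25.1 and 12.9).

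The tissues differed in their 3 h change at 5352 probe sets, 36.1% of those tested, by limma with Benjamini-Hochberg adjusted p under 0.05. The difference (shoot change minus root change) was above 0 at 2570 probe sets (17.4%) and below 0 at 2782 (18.8%). It was at least 2-fold at 1034 and 729 of them. More probe sets changed in shoots than in roots: in shoots 3489 (23.6%) were higher and 4071 (27.5%) lower at 3 h, and in roots 1756 (11.9%) were higher and 1679 (11.3%) lower.

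The largest class was shoot-only, in which the difference and the shoot change were called and the root change was not. It held 3369 probe sets (22.8%), of which 1583 rose and 1786 fell in shoots. The root-only class, defined the other way round, held 746 (5.04%), with 393 rises and 353 falls. Both tissues changed in the same direction with no difference called at 1055 probe sets (7.13%), 488 up and 567 down. They changed in the same direction but by different amounts at 464 probe sets where shoots changed more (3.13%) and at 84 where roots did (0.567%). Opposite changes, each called in its own tissue, were found at 452 probe sets (3.05%), with 199 up in shoots and down in roots and 253 the other way. A change called in 1 tissue with no difference called was found at 2136 probe sets for shoots and 634 for roots, and these were not counted as particular to a tissue. The smaller classes depended on single root arrays. Without replicate 2 of roots at 3 h the opposite class held 231 probe sets, the root-only class 445, the same-direction class larger in shoots 217 and the shared class 633. Without replicate 1 of roots at 0.25 h the opposite class held 267 and that larger in shoots 277, and without replicate 1 of roots at 3 h they held 257 and 260. That larger in shoots held 267 without replicate 2 of roots at 0.25 h, and that larger in roots held 48 without replicate 1 of shoots at 3 h and 56 without replicate 1 of shoots at 0.25 h. The number of root changes called was 3435, and it fell to 1857 without replicate 2 of roots at 3 h, to 2169 without replicate 1 of roots at 3 h and to 2136 without replicate 1 of roots at 0.25 h.

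**Figure D1:**
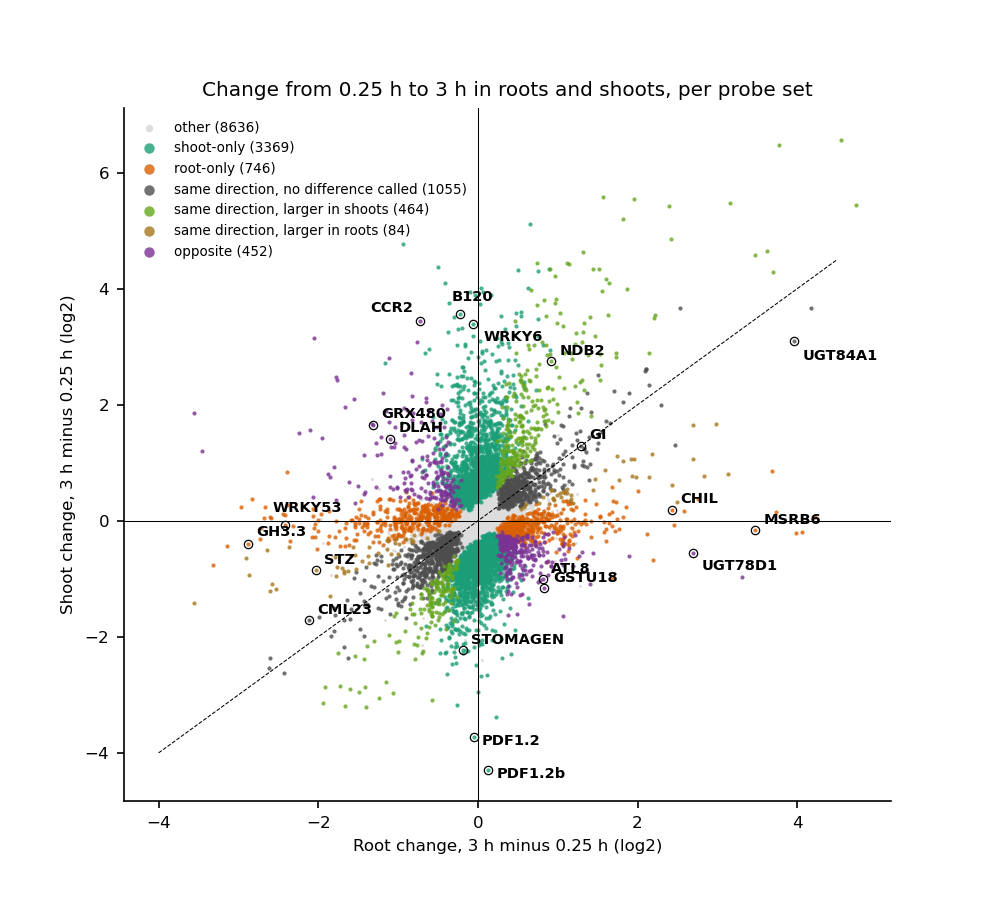
Each point is 1 probe set, with its root change on the horizontal axis and its shoot change on the vertical axis (both log2, 3 h minus 0.25 h, means of 2 arrays per group) and the dashed line marking equal change. The 3369 shoot-only probe sets lie along the vertical axis, the 746 root-only ones along the horizontal axis and the 452 opposite ones in the upper left and lower right.

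**Figure D2:**
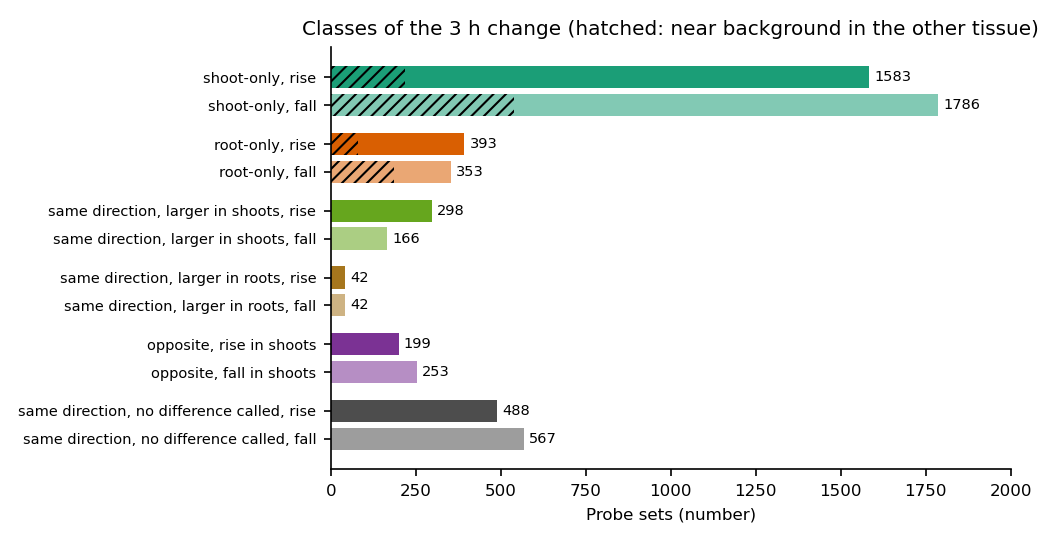
Bars give the number of probe sets in each class and direction (horizontal axis, number), and the hatched stretch of a shoot-only or root-only bar is the number near background in the other tissue. The hatched share is smallest for shoot-only rises (218 of 1583) and largest for root-only falls (186 of 353).

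In the 199 probe sets that rose in shoots and fell in roots, the median change was 0.76 in shoots and -0.59 in roots. The symbol-bearing genes among them include enzymes of lignin, jasmonate and redox metabolism. CCR2, a cinnamoyl-CoA reductase at the entry to lignin monomers, had signals of 16.2 and 8.16 in shoots at 0.25 h and 223 and 225 at 3 h. In roots its signals were 135 and 125 at 0.25 h and 66.1 and 84.8 at 3 h. The shoot arrays started about where the probe set gives little signal and ended above every root array, and no 3 h array overlapped the 0.25 h arrays of its tissue. The shoot rise was 3.45 and the root fall -0.72 (log2), a difference of 4.17 (SE 0.19, adjusted p 4.97e-12, limma).

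GRX480, a glutaredoxin that binds TGA transcription factors in salicylate and jasmonate signalling, had shoot signals of 117 and 26.2 at 0.25 h and 209 and 197 at 3 h. Its root signals were 308 and 257 at 0.25 h and 105 and 111 at 3 h. The 2 shoot arrays at 0.25 h lay far apart, yet both lay below the 3 h arrays, and roots ran from the higher level to the lower. The difference was 2.97 (SE 0.52, adjusted p 2.92e-04, limma). Against 24 h in place of 0.25 h it was 1.32 and not called (adjusted p 0.0604). MSRB9, a methionine sulfoxide reductase that repairs oxidised protein methionines, went from 107 and 62.9 to 269 and 313 in shoots and from 855 and 745 to 385 and 343 in roots, a difference of 2.82. Here the root arrays began far above the shoot arrays and ended near them.

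DLAH, a DAD1-like lipase, had shoot signals of 37.4 and 29.8 and then 114 and 97.3, and root signals of 167 and 175 and then 68.8 and 80.9. The tissues thus changed places, with a difference of 2.52 (SE 0.21, adjusted p 1.45e-08, limma). OPCL1, the CoA ligase that activates a jasmonate precursor in peroxisomes, rose from 173 and 156 to 492 and 452 in shoots and fell from 182 and 166 to 107 and 112 in roots. The tissues were level at 0.25 h and did not overlap at 3 h. SAG101, a partner of EDS1 in defence signalling, went from 40.99 and 22.98 to 74.2 and 47.6 in shoots and from 76.8 and 82.5 to 40.9 and 38.5 in roots, a difference of 1.63. Against 24 h the difference of SAG101 was 0.34 (adjusted p 0.427, limma).

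The calmodulin-like calcium sensor CML37 rose by 0.67 in shoots and fell by 1.61 in roots, from 56.05 and 41.6 to 6.96 and 12.2. LBD29, a transcription factor of lateral root formation that acts downstream of auxin, fell in roots from 74.5 and 65.03 to 10.6 and 8.16. In shoots LBD29 was near background on all 4 arrays, so its shoot rise of 0.40 is a change between signals of 1.701 and 1.15 and 3.601 and 6.46. The cytochromes P450 CYP71B22 and CYP71B26 differed by 1.38 and 1.26. CYP71B22 was near background in roots (9.17 and 11.5, then 0.758 and 2.41), and CYP71B26 was measured well in both tissues.

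Several loci with no symbol in the annotation were among the largest of this kind. AT5G52760 had shoot signals of 239.6 and 102 and then 721 and 497 and root signals of 143 and 149.97 and then 2.73 and 4.64, a difference of 5.43 (SE 0.35, adjusted p 1.90e-09, limma). Its neighbour by number, AT5G52750, moved the same way (1.52 in shoots, -2.24 in roots). AT4G20000 fell in roots from 182 and 197 to 39.4 and 43.9 and was near background in shoots.

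The 253 probe sets that fell in shoots and rose in roots had median changes of -0.51 and 0.46. Both were smaller than in the class just described, and 2 glycosyltransferases of flavonoids were among its members. UGT78D1, which adds rhamnose to flavonols, had shoot signals of 156 and 183 at 0.25 h and 108 and 115 at 3 h. Its root signals were 26.1 and 18.1 at 0.25 h and 176 and 215 at 3 h. Shoots were the higher tissue at 0.25 h by a wide margin, and roots were the higher one at 3 h. The difference was -3.26 (SE 0.30, adjusted p 6.54e-08, limma). UGT78D2, which adds glucose to flavonols and anthocyanins, went from 251 and 281 to 173 and 169.6 in shoots and from 204 and 198 to 462 and 536 in roots, a difference of -1.87.

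UGT78D2 shows that the sign at 3 h describes 1 time only. Its mean signal in shoots was 640.4 at 0.5 h and 1429 at 1 h, before it stood at 171 at 3 h. In roots it was 402, 907 and 499 at those times. Both tissues were thus highest at 1 h, and at 3 h shoots lay below their 0.25 h level while roots still lay above theirs. UGT78D1 had another course: its root mean went through 56.2 and 124 to 195 at 3 h and was 9.95 at 6 h, while its shoot mean stayed between 78.2 and 169.7 from 0.25 h to 6 h.

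GSTU18, a tau-class glutathione transferase, fell from 306 and 312 to 124 and 144 in shoots and rose from 30.1 and 24.7 to 52.97 and 59.4 in roots, a difference of -1.99 (SE 0.15, adjusted p 2.71e-09, limma). GT2, a trihelix transcription factor first described as a binder of light-responsive promoters, and ATL8, a RING-type ubiquitin ligase, differed by -1.51 and -1.81. For ATL8 the shoot arrays went from 35.8 and 42.4 to 12.2 and 17.4 and the root arrays from 38.9 and 38.2 to 67.9 and 82.3, so that equal tissues at 0.25 h stood apart at 3 h. Both subunits of methylcrotonyl-CoA carboxylase, which works in leucine breakdown in mitochondria, moved together: MCCA by -0.52 in shoots and 0.55 in roots, and MCCB by -0.61 and 0.54. MGL, methionine gamma-lyase, moved by -0.48 and 1.02.

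CHLI2, a subunit of the magnesium chelatase of chlorophyll synthesis, fell from 256 and 309 to 168 and 199 in shoots. Its root signals of 4.97 and 1.18 and then 7.37 and 10.7 were all near background, so the root rise of 0.57 rests on very low values, and without a pseudocount the difference of -1.17 became -2.50. COR47, a dehydrin induced by cold and drought, rose in roots from 1176 and 1056 to 2012 and 1881 and fell in shoots from 198 and 241 to 139 and 175, a difference of -1.26. The locus AT4G33666, without a symbol, had shoot signals of 938 and 809 and then 460.3 and 424 and root signals of 39.5 and 29.6 and then 412 and 437. Its difference was -4.27 (SE 0.17, adjusted p 5.62e-13, limma). The shoot arrays lay far above the root arrays at 0.25 h and overlapped them at 3 h. AT4G17280 rose in roots from 148 and 156 to 407 and 425 and was near background in shoots.

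**Figure D3:**
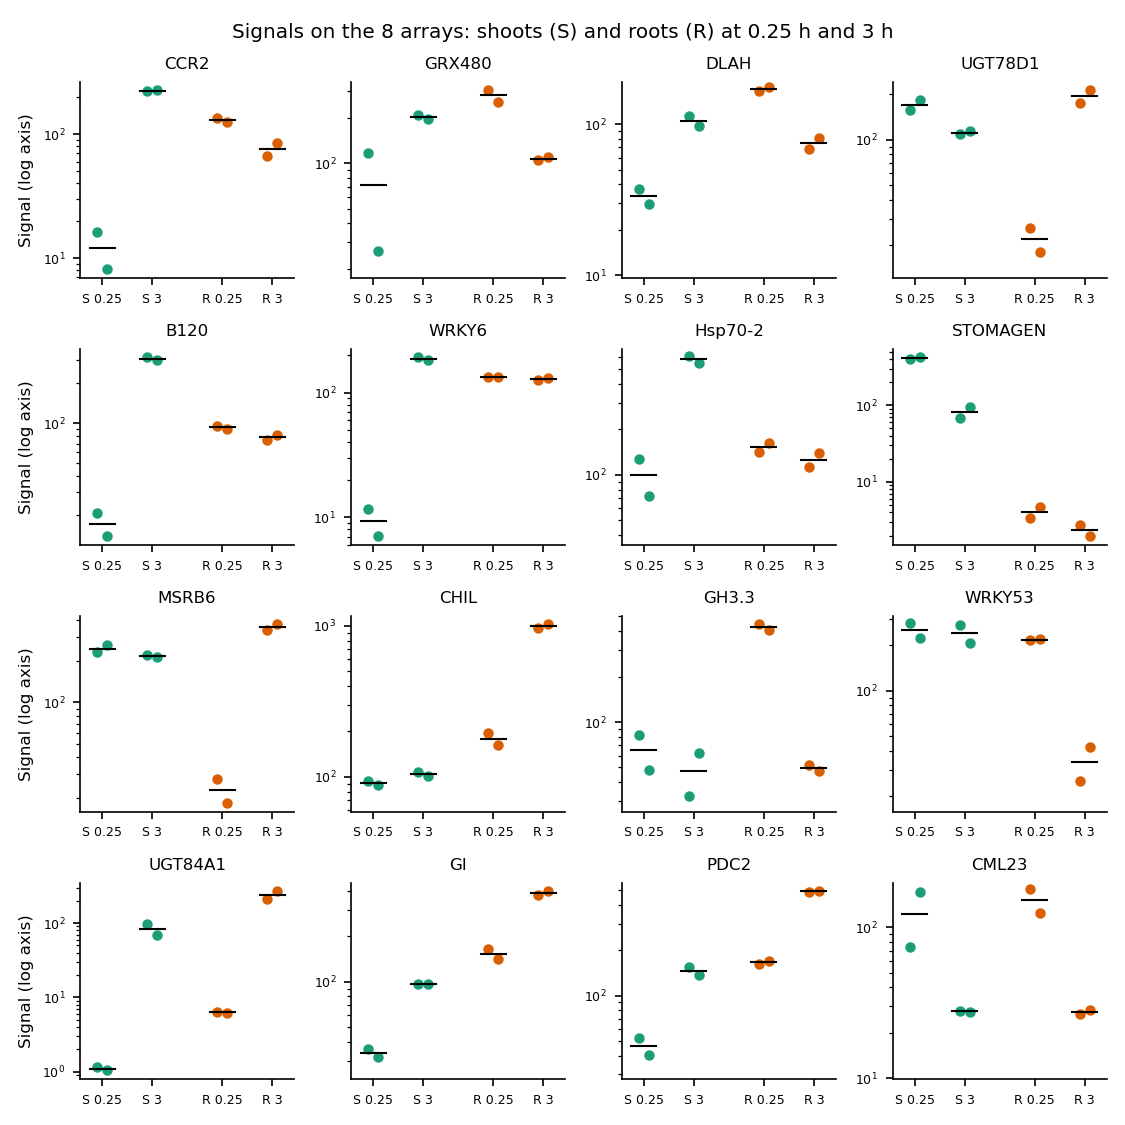
Points are the signals of the 2 arrays of each group on a log axis, with bars at their means, for 16 genes in shoots (S, green) and roots (R, orange) at 0.25 h and 3 h. The top row shows opposite changes, the next row shoot-only changes, the third row root-only changes and the bottom row changes shared by both tissues.

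The 1583 shoot-only rises had a median change of 0.82 in shoots and -0.01 in roots. Genes of receptor signalling, ubiquitin ligation, glycosyl transfer and protein folding were among those named. B120, a lectin-type receptor kinase, had shoot signals of 20.7 and 13.95 at 0.25 h and 315 and 300.3 at 3 h. Its root signals were 95.02 and 90.6 and 75.1 and 81.5. The difference was 3.79 (SE 0.21, adjusted p 5.02e-11, limma). WRKY6, a transcription factor of senescence, defence and phosphate signalling, went from 11.7 and 7.07 to 191 and 183 in shoots and stayed at 134 and 132 and then 125 and 129.9 in roots. For both genes the roots at 0.25 h lay above the shoots by a wide margin, and the shoots at 3 h had passed them.

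BIK1, a cytoplasmic kinase that relays signals from immune receptors, rose in shoots from 139 and 104 to 496 and 412, with 261 and 206 and then 258 and 263 in roots. PUB24, a U-box ubiquitin ligase known to dampen immune signalling, rose by 1.7 in shoots with -0.41 in roots. RHF1A, a RING-type ligase, rose by 2.0 with -0.10 in roots. These 3 regulators differed between tissues by 1.67, 2.11 and 2.1. Of 12 U-box and RING ligase probe sets tested, 3 had a difference above 0 and 3 below 0, with a median of -0.03. The shares over all probe sets tested were 17.4% and 18.8%. From a list of 208 receptor-like kinases and proteins only 2 probe sets were tested, both above 0. YLS5, named for its expression in yellowing leaves, rose from 185 and 95.1 to 1219 and 1167 in shoots, with 452 and 425 and 526 and 547 in roots. AT5G64120, a class III peroxidase also called PRX71, rose from 62.02 and 33.9 to 419 and 378 in shoots, with 260.4 and 292 and 285 and 344 in roots.

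Several glycosyltransferases, a cytochrome P450 and an enzyme of ascorbate recycling were among the shoot-only rises. UGT73C1, a glycosyltransferase, rose from 2.39 and 0.898 to 91.6 and 82.3 in shoots and was near background in roots on all 4 arrays. UGT71C5, which glucosylates abscisic acid, rose by 1.87 with 0.23 in roots. UGT74B1, of glucosinolate synthesis, rose by 1.41 with 0.20 in roots, and UGT84A3, which makes sinapate and other hydroxycinnamate glucose esters, by 1.02 with -0.08 in roots near background. CYP71B23, a cytochrome P450, had shoot signals of 97.5 and 18.01 and then 314 and 297 against 329 and 299 and 225 and 208 in roots. Its difference of 3.05 had an adjusted p of 2.27e-04 in limma and of 0.0522 when only the 8 arrays entered the fit. ATMDAR2, a monodehydroascorbate reductase that regenerates ascorbate, rose by 1.24 with -0.05 in roots.

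Several chaperones and their partners also rose in shoots with no root change called. Hsp70-2, a cytosolic chaperone, had shoot signals of 128 and 72.4 and then 617 and 553 and root signals of 142 and 163 and then 114 and 139, a difference of 2.74 (SE 0.26, adjusted p 1.17e-07, limma). Hop2 and Hop3, which pass client proteins from Hsp70 to Hsp90, differed by 1.12 and 1.5, and SGT1A, an Hsp90 partner in resistance-protein function, by 1.33. BZIP28, a membrane-bound factor released by endoplasmic reticulum stress, went from 116 and 119 to 212 and 212 in shoots, with 265 and 227 and 249.8 and 245 in roots. DER1, of the removal of misfolded proteins from that compartment, differed by 0.61, and by 0.00 against 24 h (adjusted p 0.99, limma).

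The cold and dehydration genes COR15A and COR15B, which encode chloroplast-protecting proteins, rose in shoots and lay near background in roots. COR15A went from 42.7 and 24.4 to 244 and 159 in shoots, with 7.16 and 1.14 and then 6.11 and 16.2 in roots. COR15B went from 35.3 and 15.6 to 135 and 75.9, with 16.3 and 15.6 and then 13.4 and 12.5 in roots. The call for COR15A depended on the pseudocount: the difference of 1.71 became 0.81 without a pseudocount (adjusted p 0.586, limma). XTH18, a xyloglucan endotransglucosylase of the cell wall, rose from 48.3 and 49.8 to 161 and 126 in shoots, with 283 and 215 and then 198 and 154 in roots. HEMA2, a glutamyl-tRNA reductase at the start of tetrapyrrole synthesis, differed by 1.09.

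Of the loci without a symbol, AT3G48640, AT5G22530 and AT4G39670 had the largest differences in this class, 5.7, 4.87 and 4.52. AT3G48640 was near background in roots, with signals of 37.3 and 27.2 and then 12.2 and 12.1. In all 3 the shoot arrays at 0.25 h lay far apart, with replicate 1 the higher: 94.7 and 16.1, 19.8 and 5.16 and 43.7 and 3.42. All 6 of these signals lay below every 3 h signal of the same gene, which were 1480.3 and 1315, 439.9 and 404 and 490.2 and 402. Over all 1583 shoot-only rises, replicate 1 was the higher of the shoot arrays at 0.25 h at 67.1% of probe sets, with a median gap of 0.12 (log2), against 52.5% and 0.01 over all probe sets tested. Over the opposite changes that rose in shoots it was the higher at 74.4%, with a median gap of 0.20. The part of this gap in the results was not tested.

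The 1786 shoot-only falls had a median change of -0.71 in shoots and 0.04 in roots. Genes of defence peptides, cell wall loosening, sugar export and stomatal development were among those named. PDF1.2b, a plant defensin induced by jasmonate and ethylene, had shoot signals of 1459 and 623 at 0.25 h and 51.8 and 30.2 at 3 h, and root signals of 6.24 and 5.16 and then 6.57 and 7.61, near background throughout. Its near-identical copy PDF1.2 had 1184 and 273 and then 38.9 and 30.6 in shoots, and the array may not tell the 2 genes apart. The differences were -4.41 and -3.66. MYC4, a bHLH factor of jasmonate responses, fell from 74.1 and 109.7 to 33.4 and 36.9 in shoots, with 79.1 and 107 and 79.3 and 90.3 in roots. WRKY22, a defence-linked factor, fell by 1.48 in shoots and was near background in roots, and its difference of -1.1 was -0.10 against 24 h (adjusted p 0.745, limma).

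STOMAGEN, the leaf peptide that raises stomatal density, fell from 404 and 419 to 67.6 and 94.97 in shoots. SWEET11, a sucrose exporter of phloem loading, fell from 1075 and 1173 to 318 and 363. EXPA8, an expansin that loosens cell walls, fell from 385 and 429 to 89.3 and 96.5. All 3 were near background in roots, so their root changes were not measured well. EXGT-A3, a xyloglucan endotransglucosylase, was measured in both tissues and fell from 770.5 and 753 to 242 and 254 in shoots while roots gave 198 and 197 and 193 and 211. Its difference was -1.62 (SE 0.16, adjusted p 1.31e-07, limma).

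GME, the GDP-mannose epimerase of ascorbate synthesis, fell from 1044 and 1015 to 437 and 433 in shoots, with 250.5 and 174 and 334 and 245 in roots, a difference of -1.66. ASPGB1, an asparaginase, fell from 197 and 230.03 to 40.98 and 60.8, with 115 and 145 and 159 and 147 in roots. Its difference of -2.12 was -1.51 against 24 h (adjusted p 0.0549, limma). UPB1, a bHLH factor that controls peroxidases at the root growth zone, was well measured in roots (209.7 and 193, then 172 and 192) and fell in shoots from 27.3 and 31.1 to 1.62 and 0.356, where it was near background. Its difference was -1.74, and -0.30 against 24 h (adjusted p 0.453, limma). TBL25 and TBL26, of cell wall polysaccharide acetylation, differed by -1.1 and -1.23, and TBL26 was near background in roots. HYH, a bZIP factor of light and UV-B signalling and the homologue of HY5, fell from 221 and 231 to 172 and 117 in shoots, with 78.3 and 83.5 and 76.9 and 90.4 in roots. Its difference of -0.68 was -0.41 without replicate 2 of shoots at 3 h (adjusted p 0.0661, limma). PSBY, a photosystem II protein, differed by -0.83, and by -0.26 against 24 h (adjusted p 0.377, limma). Of loci without a symbol, AT2G20670 went from 614 and 642 to 90.9 and 91.8, AT3G15450 from 2179 and 2189.7 to 339 and 505 and AT1G33055 from 54.7 and 43.5 to 2.64 and 1.98 in shoots, and none of the 3 was near background in roots, where changes of 0.12, 0.31 and 0.41 were not called.

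The 393 root-only rises had a median change of 0.60 in roots and -0.12 in shoots. MSRB6, a methionine sulfoxide reductase of the same family as MSRB9, had root signals of 27.6 and 18.5 at 0.25 h and 334 and 368 at 3 h, and shoot signals of 232 and 259.6 and then 222 and 215. Its difference was -3.64 (SE 0.33, adjusted p 1.03e-07, limma), opposite in sign to that of MSRB9. CHIL, a chalcone isomerase-like protein that raises flavonoid output, went from 196 and 162 to 969 and 1037 in roots and from 93.5 and 88.4 to 109 and 102 in shoots, a difference of -2.24 (SE 0.29, adjusted p 5.36e-06, limma). Neither gene was near background in either tissue, and their shoot changes of -0.16 and 0.19 were not called.

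UGT73B1, a glycosyltransferase, rose in roots from 63.7 and 85.1 to 174 and 189, and its difference of -1.6 was -0.68 against 24 h (adjusted p 0.0738, limma). LCR69, a small defensin-like peptide, rose from 493 and 507 to 1053 and 1057 in roots, with 317 and 305 and 192 and 279 in shoots, and its difference of -1.47 was -0.30 against 24 h (adjusted p 0.374). The serine carboxypeptidase-like gene scpl28 rose from 59.9 and 54.2 to 169 and 195 in roots and was near background in shoots. COR27, a cold-induced gene under clock control, was near background in both tissues, and its root signals went from 1.24 and 1.09 to 14.6 and 16.2. Its root mean was 53.1 at 6 h, and its shoot mean was 26.6 at 6 h and 73.2 at 12 h. Without a pseudocount its difference of -1.27 became -3.72. Without a symbol, AT2G23910 had root signals of 30.9 and 22.9 and then 644 and 694 with shoots near background, and AT1G65560 had 51.95 and 55.2 and then 261 and 271 with shoots at 48.7 and 54.04 and 44.6 and 39.7. Their differences were -4.15 and -2.36.

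The 353 root-only falls had a median change of -0.80 in roots and 0.06 in shoots. GH3.3, an enzyme that joins auxin to amino acids, fell in roots from 445 and 409 to 51.6 and 47.6, with 82.3 and 48.1 and 32.4 and 62.3 in shoots. The shoot arrays at the 2 times overlapped, and the difference was 2.48 (SE 0.47, adjusted p 5.66e-04, limma). WRKY53, a transcription factor of senescence and stress, fell in roots from 218 and 219 to 25.4 and 42.6 and stayed at 279.8 and 224 and 275 and 207 in shoots, a difference of 2.35 (SE 0.28, adjusted p 1.81e-06, limma). AR781 fell from 301 and 277 to 119 and 134 in roots, with 392 and 429 and 502 and 443 in shoots. In shoots WRKY53 and AR781 were lower at later times, with means of 75.9 and 133 at 6 h and 14.9 and 24.2 at 12 h. PR-1-LIKE, related to the pathogenesis-related protein PR-1, fell from 540.1 and 566 to 81.6 and 69.4 in roots, and EXPB2, a beta-expansin, from 104 and 138 to 19.2 and 23.6. Both were near background in shoots, and for EXPB2 the difference of 2.26 was 0.03 against 24 h (adjusted p 0.95, limma).

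Among the 298 probe sets that rose in both tissues and more in shoots, the median changes were 1.63 in shoots and 0.55 in roots. UGT73B5, a glycosyltransferase of redox and pathogen responses, went from 16.5 and 9.92 to 252 and 208 in shoots and from 74.1 and 77.5 to 193 and 217 in roots. Its relative UGT73B4 went from 1.98 and 0.841 to 71.1 and 69.97 and from 109.7 and 139.8 to 229 and 251. Roots began higher for both, and at 3 h UGT73B5 was level in the tissues while UGT73B4 remained lower in shoots. The differences were 2.08 and 1.97, the second becoming 4.70 without a pseudocount. NDB2, an external alternative NAD(P)H dehydrogenase of mitochondria, went from 85.2 and 49.03 to 513 and 476 in shoots and from 211 and 190.4 to 372 and 400.5 in roots. BZIP60, the bZIP factor whose transcript is spliced during endoplasmic reticulum stress, went from 236 and 258 to 1034 and 946 in shoots and from 239 and 226 to 284 and 293 in roots, a difference of 1.66 (SE 0.15, adjusted p 2.18e-08, limma). UGT87A2, CYP84A4 (a cytochrome P450), SUFE2 (a sulfur-transfer protein) and Fes1A (an Hsp70 partner) differed by 1.94, 1.4, 1.35 and 1.08, with CYP84A4 near background in roots.

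Of genes that fell in both tissues, EXO, a brassinosteroid-responsive growth gene, fell more in shoots (-1.96 against -1.11), as did RALFL22, a small signalling peptide (-1.9 against -0.91). Against 24 h the differences were -1.85 for EXO and 0.18 for RALFL22 (adjusted p 0.536, limma). In the 42 that fell more in roots, STZ, a zinc-finger repressor of rapid stress responses, went from 1544 and 1591 to 919 and 808 in shoots and from 918 and 1160.5 to 212 and 285 in roots, a difference of 1.17 (SE 0.19, adjusted p 7.05e-05, limma). WES1, an auxin-conjugating enzyme of the GH3 family, changed by -0.86 in shoots and -1.68 in roots. EXLA3, an expansin-like gene, fell from 117 and 94.7 to 10.8 and 14.7 in roots and was near background in shoots. Against 24 h the difference of STZ was 3.22 and that of EXLA3 -0.50 (adjusted p 0.0668, limma), the second of the opposite sign.

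The shared class gives changes of similar size, though a difference that was not called is no proof of equality. GI, a clock gene, went from 35.6 and 31.9 to 96.5 and 96.7 in shoots. In roots it went from 164 and 142 to 378 and 401. Its changes were 1.29 and 1.3, with a difference of -0.00 (SE 0.13). Against 24 h the difference for GI was -0.40 and was called (adjusted p 0.019, limma). PDC2, a pyruvate decarboxylase of fermentation, rose by 1.48 and 1.51, from 52.3 and 40.3 to 154 and 137 in shoots and from 163 and 169 to 484 and 495 in roots. The difference for PDC2 was -0.03 (SE 0.15). Against 24 h its shoot change was 0.23 (adjusted p 0.0857, limma) and its tissue difference -1.42 (adjusted p 2.51e-07), so it was shared with the 0.25 h reference only. UGT84A1, a hydroxycinnamate glucosyltransferase related to UGT84A3, rose from 1.15 and 1.06 to 97.3 and 68.2 in shoots and from 6.41 and 6.22 to 213 and 266 in roots, and here the difference of -0.87 had an SE of 0.49. GSTU25, a tau-class glutathione transferase, rose from 0.522 and 0.452 to 34.7 and 27.1 in shoots, near background there, and from 177 and 208 to 902 and 1056 in roots. The pseudocount understates such changes from very low signals: without it the shoot change of GSTU25 was 4.94 in place of 2.0, and that of UGT84A1 6.21 in place of 3.09. The root change of GSTU25 stayed between 2.12 and 2.47 in all settings. The similar size of its 2 changes therefore depended on the pseudocount.

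Also rising in both tissues were psbA, the plastid gene of the D1 protein of photosystem II (1.25 and 1.33), the dehydrin gene LTI30 (0.97 and 1.21) and TIL, a temperature-induced lipocalin (0.89 and 1.03). Against 24 h neither change of TIL was called, with 0.04 in shoots (adjusted p 0.792, limma) and 0.27 in roots (adjusted p 0.088). The root change of psbA was 1.17 without replicate 2 of roots at 0.25 h (adjusted p 0.0512, limma). AT5G43450 went from 184 and 148 to 2295 and 2123 in shoots and from 27.5 and 29.2 to 672 and 674 in roots, the largest shared rise among probe sets of 1 gene by the smaller of its 2 changes (3.66 and 4.17). AT1G56300, AT2G29500 and AT4G16680 rose by 2.62, 2.61 and 2.59 in shoots and by 2.11, 2.11 and 2.09 in roots. The root change of AT4G16680, near background there, was 4.48 without a pseudocount.

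Genes that fell in both tissues included CML23, a calmodulin-like sensor, with 73.7 and 169.99 and then 27.8 and 27.5 in shoots and 179.5 and 125 and then 26.5 and 28.1 in roots. The 2 tissues had nearly the same signals at 3 h. BCAT4, of the methionine chain extension that feeds glucosinolates, changed by -0.99 in shoots and -1.55 in roots, and GTR1, a glucosinolate transporter, by -1.15 and -0.73. Against 24 h the shoot change of BCAT4 was -0.35 (adjusted p 0.0921, limma) and the root change of GTR1 -0.17 (adjusted p 0.352). UGT74B1, the other tested member of the glucosinolate list that holds BCAT4, rose in shoots, as given above. The signalling peptide gene RALFL33 changed by -1.19 and -0.99, the cell wall sensing kinase gene THE1 by -0.62 and -0.68, the homeodomain factor gene HAT2 by -1.08 and -0.77, and the auxin-conjugating gene GH3.17 by -0.99 and -0.74. AT4G29780 changed by -2.63 in shoots and -2.43 in roots. Set against 24 h, its shoot value at 3 h was higher by 1.49, and that of CML23 by 0.86, so in shoots both stood between a high level at 0.25 h and a low one the next day. The root changes of AT4G29780, CML23 and THE1 against 24 h were 0.11, -0.55 and -0.31. None of them was called (adjusted p 0.675, 0.136 and 0.0831, limma). Beside GI and PDC2, other named shared genes had a tissue difference called against 24 h (adjusted p in limma). Among rises these were GSTU25 (-0.68, 0.0157), LTI30 (0.72, 0.0273), AT5G43450 (0.61, 0.0387) and AT2G29500 (1.44, 0.00262). Among falls they were GTR1 (-0.79, 0.00136), CML23 (1.41, 0.00416) and AT4G29780 (1.38, 4.20e-05). For the rest of the named shared genes it was not called.

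Gene lists were counted by function. Counts of differences are read against 17.4% above 0, 18.8% below 0 and a median of -0.04 over all probe sets tested. Rises and falls are read against 23.6% and 27.5% in shoots and 11.9% and 11.3% in roots. Many lists hold a small part of their pathway or family, since only genes with an annotated probe set entered. That was 6 of 22 flavonoid entries, 6 of 33 for rapid stress, 8 of 134 for calcium sensors and 23 of 252 for cytochromes P450. The counts describe the tested members only. Of 5 flavonoid probe sets, 4 had a difference below 0, with a median of -1.87: UGT78D1, UGT78D2, CHIL and DFR. Shoots had 3 falls and roots 3 rises in that list. The fourth gene, DFR, dihydroflavonol reductase of anthocyanin synthesis, had shoot signals of 86.97 and 67.3 and then 33.2 and 32.04 and root signals of 10.6 and 14.4 and then 12.3 and 37.5, near background in roots. Its difference of -1.57 (adjusted p 0.0467, limma) lost its call without any 1 of 7 of the 8 arrays, all but replicate 1 of roots at 3 h, where the values ranged from -1.74 to -1.02 and the adjusted p from 0.0592 to 0.222.

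Of 6 probe sets of the rapid stress and touch list, 5 had a difference above 0 (WRKY6, WRKY53, CML37 and STZ among them), and the other was WRKY22. The list's median change was -0.22 in shoots and -1.33 in roots. The oxidative stress list had 4 probe sets that all rose in both tissues, and 3 of them (UGT73B5, UGT73B4 and NDB2) rose more in shoots, with a median difference of 1.91. Of 13 probe sets for folding and degradation in the endoplasmic reticulum, 7 had a difference above 0, with a median of 0.38, and the number was 4 without replicate 1 of roots at 3 h. Of 11 heat shock co-chaperone probe sets 5 had a difference above 0, Hsp70-2, Hop2, Hop3 and Fes1A among them, and 2 below 0. Calcium sensors had 5 of 7 above 0, CML37 among them, and roots had 5 falls. That count was 3 without replicate 1 of shoots at 0.25 h or without a pseudocount, and 2 without replicate 1 of shoots at 3 h.

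Of 37 glycosyltransferase probe sets 11 had a difference above 0 and 9 below 0, with a median of 0.00, and single members differed by up to 3.07 (UGT73C1) and -3.26 (UGT78D1). Of 12 glutathione transferases 1 was above and 4 below 0. Of 14 cytochromes P450, 5 were above 0 (CYP71B23, CYP84A4, CYP71B22 and CYP71B26 among them) and 0 below 0 in limma, and 6 in all had an unadjusted p under 0.05. Of 7 auxin-response probe sets 3 were above 0 (GH3.3, LBD29 and WES1), and 4 fell in each tissue. Of 9 defensin and thionin probe sets 5 were below 0, with a median of -1.21 and PDF1.2b, PDF1.2 and LCR69 among them.

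Of 18 cell wall expansion probe sets 3 were above 0 (EXLA3, XTH18 and EXPB2) and 7 below 0, with EXPA8 and EXGT-A3 among the 7, which became 3 without replicate 2 of shoots at 0.25 h and 4 without either replicate of roots at 3 h. Of 10 probe sets of sugar transport and starch 4 were below 0, SWEET11 among them, and shoots had 6 falls. Of 8 in chlorophyll synthesis 5 were below 0, CHLI2 among them, and 1 above, HEMA2. The 5 became 3 without replicate 1 of roots at 3 h. Of 11 in branched-chain amino acid and lysine breakdown 4 were below 0, and 2 without replicate 1 of roots at 0.25 h or replicate 1 of roots at 3 h. Of 11 nuclear photosynthesis probe sets 5 were below 0. That count was 1 with quantile normalization of the arrays, 3 without a pseudocount, 8 with a pseudocount at the median signal, 3 without replicate 2 of shoots at 0.25 h, and 2 without replicate 1 of shoots at 3 h, replicate 1 of roots at 0.25 h or replicate 2 of roots at 3 h.

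The summed signal of the 11 nuclear photosynthesis probe sets was 43856 to 44823 in shoots at 0.25 h and 31981 to 35007 at 3 h. In roots it was 573.6 to 681 and then 733 to 775. Plastid-genome transcripts went the other way in shoots. The summed signal of 69 plastid probe sets was 114650 to 118100 and then 127260 to 129930 in shoots. In roots it was 18700 to 18730 and then 24196 to 25301. Of the 69, 37 rose in roots and 23 in shoots, against 11.9% and 23.6% of all probe sets tested. The difference was below 0 at 16 of the 69 and above 0 at 4, a count that became 0 without replicate 1 of shoots at 3 h (limma, with 3 above 0 at an unadjusted p under 0.05) and 1 without replicate 2 of roots at 3 h. Of 9 cell cycle and 7 tubulin probe sets, 0 had a called difference in limma and 0 had an unadjusted p under 0.05. Of 8 probe sets of cellulose synthesis 1 was above and 1 below 0, and of 6 of GH9 endoglucanases 0 were called in limma, with 1 at an unadjusted p under 0.05. The cell cycle list had called falls at 5 of 9 probe sets in shoots and at 6 in roots. Over all probe sets tested the shares of falls were 27.5% and 11.3%. The list's median changes were -0.35 and -0.47.

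**Figure D4:**
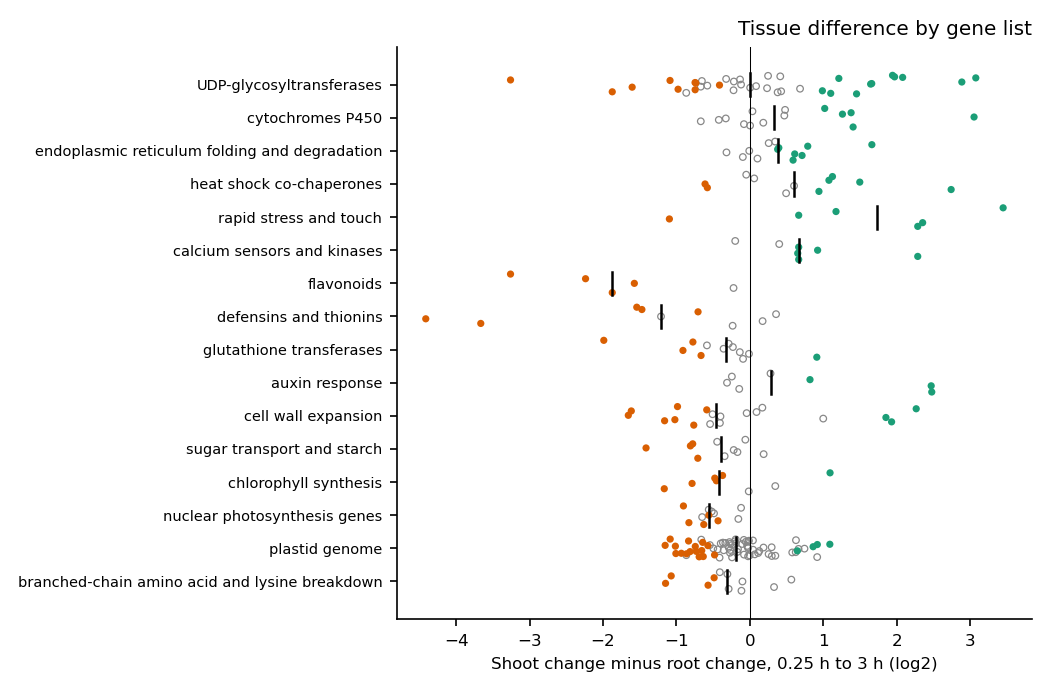
Each point is 1 probe set of the gene list named at left, placed by its shoot change minus its root change (log2, horizontal axis). Points are filled where the adjusted p was under 0.05 (green above 0, orange below 0) and open otherwise, and black bars mark list medians. The called flavonoid and defensin points lie to the left of 0, and the called glycosyltransferases lie on both sides (11 above and 9 below 0).

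A call in 1 tissue says less where the transcript lies near background in the other. Of the probe sets tested, 2503 (16.9%) were so marked in roots and 2142 (14.5%) in shoots. Among shoot-only changes 218 of the rises (13.8%) and 538 of the falls (30.1%) were near background in roots. Among root-only changes 80 of the rises (20.4%) and 186 of the falls (52.7%) were near background in shoots. Falls of these 2 classes were thus marked more often than rises, and root-only falls most often. The other classes held marked probe sets too. Of the 452 opposite changes 48 were near background in roots and 26 in shoots, and of the 1055 shared changes 84 and 65. Of the 464 larger in shoots 50 and 3 were so marked, and of the 84 larger in roots 1 and 10. At probe sets so marked, a pseudocount steadies the low tissue. Without it the difference was still called at 78.0% of the marked shoot-only rises, 61.3% of the falls, 46.2% of the marked root-only rises and 40.9% of the falls. At unmarked probe sets of the same classes the shares were 96.9%, 96.3%, 96.8% and 92.2%. The marked genes named above, such as STOMAGEN, SWEET11, PDF1.2b, UGT73C1, COR15A, EXPB2 and AT2G23910, are therefore changes seen in 1 tissue, with the other not measured well enough to compare.

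Because the difference of the 2 changes is also the change in the gap between tissues, the levels themselves show where each class started. At 0.25 h the roots had the higher log2 signal at 84.5% of the probe sets with a difference above 0, against 64.0% of all probe sets tested. At 31.7% of those with a difference below 0 the roots were the higher. The order of the tissues changed between 0.25 h and 3 h at 38.8% of the probe sets above 0 and 22.3% of those below 0, against 16.8% of all. Among shoot-only rises the median gap (shoot minus root) went from -0.72 to 0.11 on the log2 scale, and among opposite rises in shoots from -0.95 to 0.45. WRKY6, B120, CCR2 and DLAH are examples of this course, with roots above shoots at 0.25 h and below them at 3 h. The classes were chosen on the same arrays, so these shares describe them and were not tested.

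**Figure D5:**
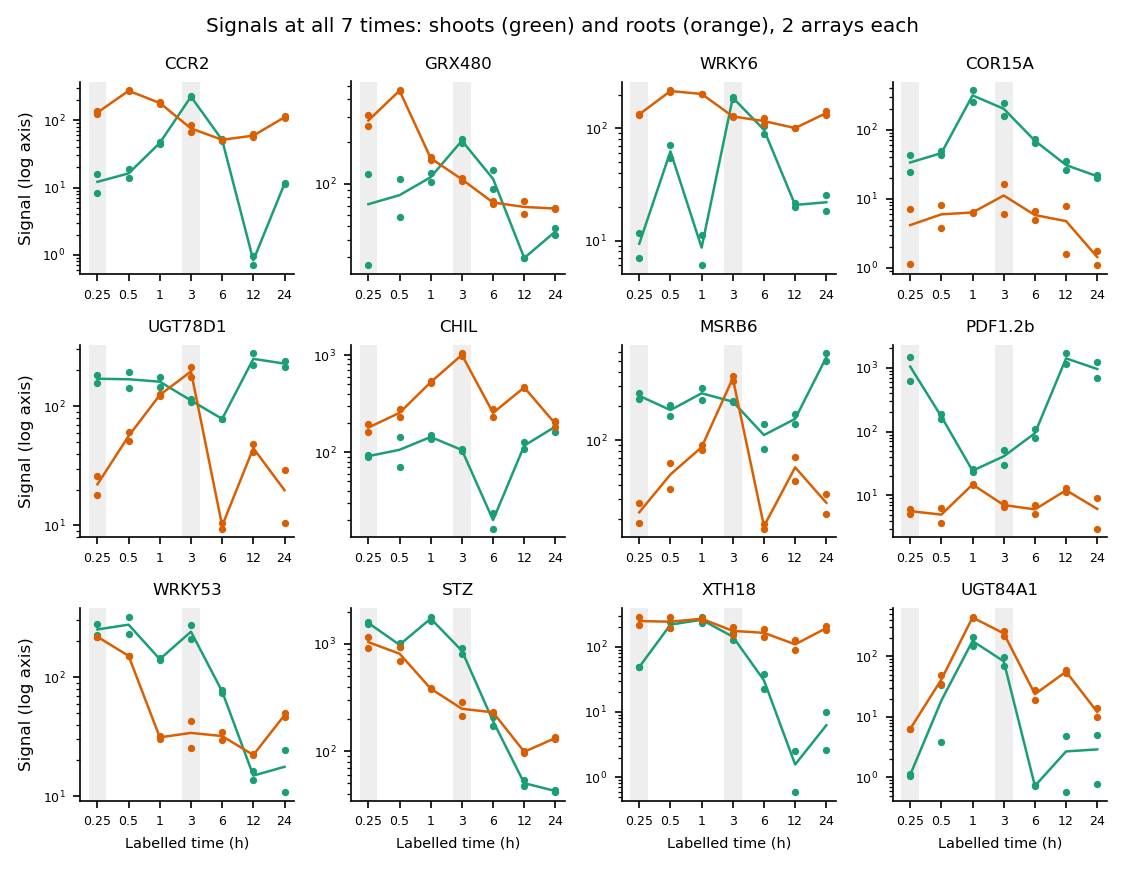
Lines join the mean signals (log axis) at all 7 labelled times (horizontal axis, in h, evenly spaced) for shoots (green) and roots (orange), with points for the 2 arrays, and grey bands mark the 2 times compared here. CCR2 and WRKY6 peak in shoots at 3 h, UGT78D1, CHIL and MSRB6 peak in roots at 3 h, and PDF1.2b is already low in shoots at 1 h.

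The other times place the 3 h difference within the course. The tissue difference in the change from 0.25 h was called at 906 probe sets at 0.5 h, 2106 at 1 h, 5352 at 3 h, 7216 at 6 h, 3927 at 12 h and 1833 at 24 h, all against the same 0.25 h arrays. CCR2 in shoots had means of 12.2, 16.2, 45.95, 224, 50.8, 0.828 and 11.4 over the 7 times, a peak at 3 h. In roots the same gene had 130.1, 273, 180.5, 75.4, 51.2, 59.1 and 111, highest at 0.5 h. GRX480 was also highest at 0.5 h in roots (462) and at 3 h in shoots (203). CHIL in roots was 525 at 1 h, 1003 at 3 h and 254 at 6 h, and MSRB6 in roots was 86.6, 351 and 17.4, so both root rises had passed by 6 h. PDF1.2b in shoots was 172 at 0.5 h, 24.4 at 1 h and 1399 at 12 h. COR15A in shoots was highest at 1 h (314), and UGT84A1 was highest at 1 h in both tissues (179 in shoots and 437 in roots).

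The difference was also computed with 24 h as the reference, near the hour of the 0.25 h plants on the next day. The 24 h plants had been exposed as well, and they too were sampled at another hour of day than the 3 h plants. This reference therefore removes neither limit. The difference against 24 h shares the 3 h arrays with the main comparison. It was called at 5070 probe sets (34.2%). Membership of the classes depended on the reference. With 24 h in its place 1788 of the 3369 shoot-only probe sets kept their class (53.1%), as did 163 of the 464 larger in shoots (35.1%), 286 of the 1055 shared (27.1%), 193 of the 746 root-only (25.9%), 105 of the 452 opposite (23.2%) and 11 of the 84 larger in roots (13.1%). The differences against 0.25 h and against 24 h were 4.17 and 3.98 for CCR2, 3.79 and 4.02 for B120, -3.64 and -4.54 for MSRB6, -3.26 and -3.84 for UGT78D1 and -4.41 and -4.34 for PDF1.2b. For these genes either reference gave the same sign and a call. For AT5G52760 they were 5.43 and 2.33, for LBD29 2.47 and 0.83, for XTH18 1.85 and 3.45 and for AR781 1.34 and 3.46. COR47 differed by -1.26 against 0.25 h and by -0.22 against 24 h (adjusted p 0.412, limma), and DFR by -1.57 and 0.19 (adjusted p 0.838). By list, 2 of 13 endoplasmic reticulum probe sets were above 0 against 24 h, 2 of 8 in chlorophyll synthesis below 0, and 2 and 3 of 18 in cell wall expansion above and below 0. Of the 11 nuclear photosynthesis probe sets 0 were called in limma against 24 h, and 0 had an unadjusted p under 0.05.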

How the data were processed

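The deposited table holds linear signal intensities for every probe set on 28 one-colour ATH1 arrays of shoots and roots at 7 times. Per the submitters' processing notes they were made with MAS5. Its version is not given in the sources used here, and detection calls were not used. After 2% of probe sets was trimmed at either end, each array had a mean of 100.0, so the authors' signals share 1 scale. Signals of 22746 probe sets (64 controls of 22810 left out) were analysed as log2(signal + 9.58), the constant being the 25th percentile. The 14806 probe sets that exceeded the array median on 2 or more of 28 arrays were kept.

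limma 3.58.1, with statmod 1.5.0 in R 4.3.3, was used to fit 14 group means over the 28 arrays, with trended and robust variance moderation (14 residual and 7.24 prior degrees of freedom). The contrast was the 3 h minus 0.25 h change in shoots minus that in roots. P-values were 2-sided and Benjamini-Hochberg adjusted over the 14806, with calls under 0.05. The fit was tested on simulated data, where 32.8% of 1.5-fold, 70.1% of 2-fold and 98.5% of 4-fold tissue differences were recovered. Among unchanged probe sets 10 were called there. In the simulation only a small share of probe sets was given a difference, against 36.1% called in the data. Its noise was normal and independent between arrays. The recovered shares and the false calls therefore need not hold for these data. The shoot and root changes were called in the same fit and, with the difference, sorted each probe set into a class. A difference that was not called does not show equal change. Alternatives were other pseudocounts, normalizations and filters, a fit of the 8 arrays alone, a replicate block, a 24 h reference and leaving out each array.

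In the annotation supplied, 13513 probe sets had 1 gene, 503 had several and 8730 had none, and the latter groups are counted but unnamed. Named genes were the largest of each class and up to 3 members per gene list, taken among probe sets of 1 gene whose arrays separated by time, and the same choice was repeated over genes with a symbol after values were seen. Some that were chosen by this rule are not printed. Of the 115 genes printed, 19 lie outside it and were chosen after their values were seen: MGL, XTH18, UGT71C5, SGT1A, EXPA8, DFR, MYC4, UGT87A2, CYP84A4, SUFE2, Fes1A, EXO, RALFL22, STZ, LTI30, TIL, GH3.17, GTR1 and THE1. The comparison, members, gene lists and names were chosen with earlier results of these data known, so list counts are descriptions. Gene coordinates and sequences were not used here.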

Additional observations from a re-analysis of the deposited data

Results flagged for a closer look

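The results below are those in which shoots and roots differed in the same contrast, by the test of the difference itself (limma, Benjamini-Hochberg adjusted p under 0.05). Over all probe sets tested, the difference was above 0 at 2570 and below 0 at 2782, a sign that does not say which tissue changed more. All values that follow are shoot change minus root change from 0.25 h to 3 h on the log2 scale, with 2 arrays per group, for the named genes whose difference was called.

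Among changes up in shoots and down in roots, the difference was 5.43 for AT5G52760, 4.17 for CCR2, 3.76 for AT5G52750, 3.39 for AT4G20000, 2.97 for GRX480, 2.82 for MSRB9 and 2.52 for DLAH. The others of that kind had 2.47 for LBD29, 2.28 for CML37, 2.09 for OPCL1, 1.63 for SAG101, 1.38 for CYP71B22 and 1.26 for CYP71B26. Among changes down in shoots and up in roots, it was -4.27 for AT4G33666, -3.26 for UGT78D1, -2.48 for AT4G17280, -1.99 for GSTU18, -1.87 for UGT78D2 and -1.81 for ATL8. The rest of these had -1.51 for GT2, -1.49 for MGL, -1.26 for COR47, -1.17 for CHLI2, -1.15 for MCCB and -1.07 for MCCA. For rises called in shoots only, the difference was 5.7 for AT3G48640, 4.87 for AT5G22530, 4.52 for AT4G39670, 3.79 for B120, 3.45 for WRKY6, 3.07 for UGT73C1, 3.05 for CYP71B23, 2.79 for YLS5 and 2.74 for Hsp70-2. Further shoot-only rises had 2.69 for AT5G64120, 2.11 for PUB24, 2.1 for RHF1A, 1.91 for COR15B, 1.85 for XTH18, 1.71 for COR15A, 1.67 for BIK1, 1.64 for UGT71C5 and 1.5 for Hop3. The remaining shoot-only rises had 1.33 for SGT1A, 1.29 for ATMDAR2, 1.21 for UGT74B1, 1.12 for Hop2, 1.1 for UGT84A3, 1.09 for HEMA2, 0.79 for BZIP28 and 0.61 for DER1. Shoot-only falls had differences of -4.41 for PDF1.2b, -3.66 for PDF1.2, -2.78 for AT2G20670, -2.71 for AT1G33055, -2.68 for AT3G15450, -2.12 for ASPGB1 and -2.04 for STOMAGEN. Further falls in shoots had -1.74 for UPB1, -1.66 for GME, -1.66 for EXPA8, -1.62 for EXGT-A3, -1.57 for DFR, -1.41 for SWEET11 and -1.23 for TBL26. The last of them had -1.1 for WRKY22, -1.1 for TBL25, -1.05 for MYC4, -0.83 for PSBY and -0.68 for HYH. Rises called in roots only had -4.15 for AT2G23910, -3.64 for MSRB6, -2.36 for AT1G65560, -2.24 for CHIL, -1.6 for UGT73B1, -1.47 for LCR69, -1.46 for scpl28 and -1.27 for COR27. Falls called in roots only had 2.48 for GH3.3, 2.41 for PR-1-LIKE, 2.35 for WRKY53, 2.26 for EXPB2 and 1.34 for AR781. Rises in both tissues that were larger in shoots had 2.08 for UGT73B5, 1.97 for UGT73B4, 1.94 for UGT87A2, 1.84 for NDB2, 1.66 for BZIP60, 1.4 for CYP84A4, 1.35 for SUFE2 and 1.08 for Fes1A. Falls in both tissues that were larger in shoots had -0.99 for RALFL22 and -0.85 for EXO. Falls larger in roots had 1.93 for EXLA3, 1.17 for STZ and 0.82 for WES1.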

How the results depend on the processing

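With at least 2-fold required of each call (shoot change, root change and difference), 1034 differences were above 0 and 729 below 0. By the same rule 1685 probe sets changed in shoots and 537 in roots. The classes sorted by these calls held 100 shared, 56 larger in shoots, 8 larger in roots, 1059 shoot-only, 224 root-only and 28 opposite changes. Of the 452 opposite changes in the main sorting, 281 had a difference of at least 2-fold. Leaving out 1 array at a time, the opposite class ranged from 231 to 488, root-only from 445 to 735, shared from 633 to 1020, larger in shoots from 217 to 529, larger in roots from 48 to 81, and root changes called from 1857 to 3704. The cause was not tested beyond the loss of 1 array itself. With background set at the 25th percentile of each array, 310 shoot-only or root-only changes lay near it in the other tissue, against 1022 at the median. The class larger in roots held 44 probe sets with 24 h as the reference. All other counts of calls and of class sizes stayed within 1.5 times the main ones under the other pseudocounts, normalizations, filters and fits that were tried, which does not say that the same probe sets filled a class. Of the opposite class 63.9% kept their class when only the 8 arrays were fitted and 49.6% to 84.3% without 1 array, and of the shoot-only class 81.2% and 72.6% to 83.6%. Counts over gene lists are smaller and moved more, that of nuclear photosynthesis from 5 below 0 to between 0 and 8.

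Of the 96 named differences, 81 had a value in all 20 settings and 15 had none under the filter at the 75th percentile, and the 2-fold minimum was not applied to single genes. In the settings where they had a value, 79 kept their sign and call, and 92 did apart from the 24 h reference, against which 14 calls were lost, 3 of them with the sign turned, and 37 values moved by over 1.5 times. Its reversed values were 0.19 for DFR, -0.50 for EXLA3 and 0.18 for RALFL22 (differences), 1.49 in shoots and 0.11 in roots for AT4G29780, and 0.86 in shoots for CML23, and the cause was not tested. Elsewhere calls were lost for COR15A without a pseudocount, CYP71B23 with 8 arrays, HYH without 1 array, and DFR with a median pseudocount (-0.94, adjusted p 0.0551, limma), with no filter (adjusted p 0.056) and in most fits without 1 array. A pseudocount at the median moved 24 of the 96 values by over 1.5 times, and none at all moved 10. All 96 were taken up with their difference already called on these same arrays, so their stability was favoured by that choice. It does not describe probe sets that were not named.

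Replicates share numbers across groups, but deviations of same-numbered arrays from their group means correlated only between -0.07 and 0.11 over pairs of groups, so the numbers are not shown to pair the arrays. With the replicate number as a block, 2527 differences were above 0 and 2720 below 0, and no named call changed. The number of arrays and, near background, the low signals limit these results.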
